A study of Mus musculus with 7 samples.

Results

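Known escapees from X inactivation, genes on the inactive X chromosome (Xi) that go on being transcribed after most of that chromosome is silenced, were examined in mouse embryonic stem (mES) cells treated with an inhibitor of METTL3. The 10 members were taken by symbol, as genes known to escape, with earlier results of these data known: Kdm5c, Kdm6a, Eif2s3x, Ddx3x, Utp14a, Mid1, Shroom4, Car5b, 5530601H04Rik and Pbdc1. All 10 were present among the 386 X-linked genes with an allelic ratio and among the 22556 genes with an expression level.

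The cells were clone C7H8, a female (XX) Cast x 129S hybrid line in which the endogenous Xist promoter on the Cast chromosome was replaced by a TetOn promoter, so that doxycycline (Dox) induces Xist from that chromosome alone. The Cast X thereby becomes the Xi and the 129S X stays the active X (Xa). All libraries came from this 1 clone, which was grown on mouse fibroblast feeders in medium with serum and LIF. Control cells received DMSO (3 libraries). Treated cells received the METTL3 inhibitor STM2457, with 2 libraries from the 10 µM dose and a lone library from each of 20 µM and 30 µM. DMSO or inhibitor was given for 6 h, and Dox at 1 µg/mL was added for a further 24 h with the treatment kept on, so that every library, the controls included, had Xist induced. Cells without Dox are not analysed here, and the ratio of each gene before Xist induction is therefore not given. Chromatin-associated RNA, which is enriched in nascent transcripts, was sequenced (ChrRNA-seq). Nothing in the labels says whether replicates were separate cultures, and by the paper's methods the conditions of a given replicate shared 1 starting pool of cells, so p-values measure the spread between these libraries.

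In X inactivation, Xist RNA spreads over the chromosome that expresses it and recruits silencing factors, so that RNA from that chromosome declines gene by gene over days. Escapees are the exception, and females express them from both X chromosomes. Several of them have a partner on the Y chromosome and act in chromatin regulation or protein synthesis. METTL3 is the catalytic subunit of the complex that writes N6-methyladenosine (m6A) on RNA, Xist RNA included. The allelic ratio, Xi/(Xi + Xa), is 0.5 where both chromosomes give equal RNA, 0 where the Xi gives none, and above 0.5 where the Xi gives more.

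Libraries held 9300549 to 28030180 read pairs on genes, with the fewest at 20 µM. Expression of 13103 autosomal genes split them into sets that dose alone does not give: principal component 1, with 78.8% of the variance, placed both 10 µM libraries with DMSO replicates 1 and 2 (set 1), and the 20 µM and 30 µM libraries with DMSO replicate 3 (set 2). This split was found after the values were seen, and it means that the higher doses have 1 control library of their own set. Xist RNA was at 1540 to 1720 RPM (read pairs scaled to the library's total on genes) in set 1 and at 3209, 4161 and 5172 RPM in DMSO replicate 3 and at 20 µM and 30 µM, with a ratio of 0.900 to 0.929 in the 7 libraries. That Xist differed with set and dose is given as a value only, and the part of Xist level and of library set in the values of the escapees was not tested. Of 8 embryonic stem cell markers, 7 were detected in every library, with a summed level of 1638 to 2190 RPM, and Sox2 was listed at 0 throughout. The 10 feeder fibroblast markers summed to 2.53 to 4.95 RPM and the 9 Y-linked homologues of X genes to 0.143 to 0.745 RPM.

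The members lie along the whole X chromosome, and 9 of the 10 are annotated as protein coding. Their promoters are shown for 3 members whose results are set against each other below. Promoter windows run from 250 bases before to 50 bases after a start site and come from RefSeq on GRCm38.p6, which has mm10 coordinates. All 10 members matched, with 14 windows, because Shroom4 and Mid1 have several. Capitals mark CpG dinucleotides, the sites at which promoter methylation occurs on the Xi. The Kdm6a window is chrX:18162325-18162624 on the plus strand, the Kdm5c window is chrX:152232977-152233276 on the plus strand, and the Pbdc1 window is chrX:105079506-105079805 on the plus strand.
Kdm6a: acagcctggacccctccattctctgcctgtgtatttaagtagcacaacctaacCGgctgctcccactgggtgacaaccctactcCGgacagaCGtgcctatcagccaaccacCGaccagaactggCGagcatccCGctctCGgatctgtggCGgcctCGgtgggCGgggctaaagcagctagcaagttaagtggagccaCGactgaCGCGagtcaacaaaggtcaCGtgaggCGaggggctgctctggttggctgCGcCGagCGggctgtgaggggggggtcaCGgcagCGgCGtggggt
Kdm5c: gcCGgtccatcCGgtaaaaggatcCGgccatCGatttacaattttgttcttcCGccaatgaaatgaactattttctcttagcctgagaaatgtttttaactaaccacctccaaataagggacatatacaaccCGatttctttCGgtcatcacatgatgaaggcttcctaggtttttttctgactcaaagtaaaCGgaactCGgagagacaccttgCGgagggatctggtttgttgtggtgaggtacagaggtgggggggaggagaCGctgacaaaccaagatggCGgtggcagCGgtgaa
Pbdc1: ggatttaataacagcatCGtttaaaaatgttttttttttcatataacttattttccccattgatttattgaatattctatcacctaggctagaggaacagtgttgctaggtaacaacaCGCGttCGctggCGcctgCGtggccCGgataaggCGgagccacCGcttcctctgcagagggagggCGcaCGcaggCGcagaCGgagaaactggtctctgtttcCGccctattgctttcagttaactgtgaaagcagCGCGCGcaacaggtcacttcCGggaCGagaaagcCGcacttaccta
The Kdm6a window holds 21 CpGs, the Kdm5c window 13 and the Pbdc1 window 20. Their observed over expected CpG ratios were 0.708, 0.796 and 1.10, where 1 means as many CpGs as the base content gives. Over the 14 windows of the members the median was 0.665, close to the 0.635 of 411 windows of genes in the ratio table and above the 0.363 of 1223 X-linked windows. The lowest of the members was 0.140, in the first Mid1 window, which holds 2 CpGs. The letters AAGATGGCG, the core of the motif of the zinc finger factor YY1, were searched on both strands and occurred in 1 of the 14 windows, that of Kdm5c, against 4.14% of windows of genes in the ratio table. The ETS family motif CCGGAAG, searched likewise, occurred in the 5530601H04Rik and Pbdc1 windows and in 10.5% of those of the ratio table. The letters TATAAA, those of the TATA box, occurred on either strand in 2 windows, against 8.52%. They were counted anywhere in the window, whatever their distance from the start site. No match overlapped another, and a match describes the letters only.

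The escapees as a group kept a higher allelic ratio than the rest of the chromosome at every dose, and the gap was wider at the higher doses. The median of their ratios came to 0.416, 0.387 and 0.377 in the DMSO libraries, to 0.400 and 0.408 in those at 10 µM, to 0.352 at 20 µM and to 0.345 at 30 µM. The median of all 386 genes in the same libraries was 0.313, 0.307, 0.269, 0.288, 0.292, 0.216 and 0.204. In 6 of the 7 libraries 9 of the 10 members lay above the library's median, and in 10 µM replicate 1 all 10 did. The member below it in the other libraries was Car5b, the most thinly covered member. Without its ratio before Xist induction, this value does not tell whether Car5b escaped in these cells. Only Mid1 had a ratio above 0.5, and without it the members' median was 0.414 in DMSO replicate 1 and 0.336 at 30 µM. For comparison, the median of 19 X genes known to be subject to silencing was 0.336, 0.309 and 0.269 in DMSO, 0.297 and 0.292 at 10 µM, and 0.250 and 0.211 at 20 µM and 30 µM. That of 9 genes that escape in some mouse cells only was 0.351, 0.318 and 0.278 in DMSO, 0.284 and 0.304 at 10 µM, and 0.319 and 0.217 at 20 µM and 30 µM. At 20 µM these variable escapees were thus above their set control and close to the 10 members, whose median without Mid1 was 0.343 there. The 20 µM library had the fewest read pairs, and at 30 µM the same 9 genes were below that control. After 24 h of Xist, genes known to be silenced thus still gave RNA from the Xi, and the highest of the 19 in DMSO replicate 3 had a ratio of 0.500. Above their library's median lay 9 to 11 of these 19 genes and 4 to 6 of the 9 variable escapees. Of the members, Utp14a and Pbdc1 came as low as the 54.1st and 52.3rd percentile.

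**Figure D1:**
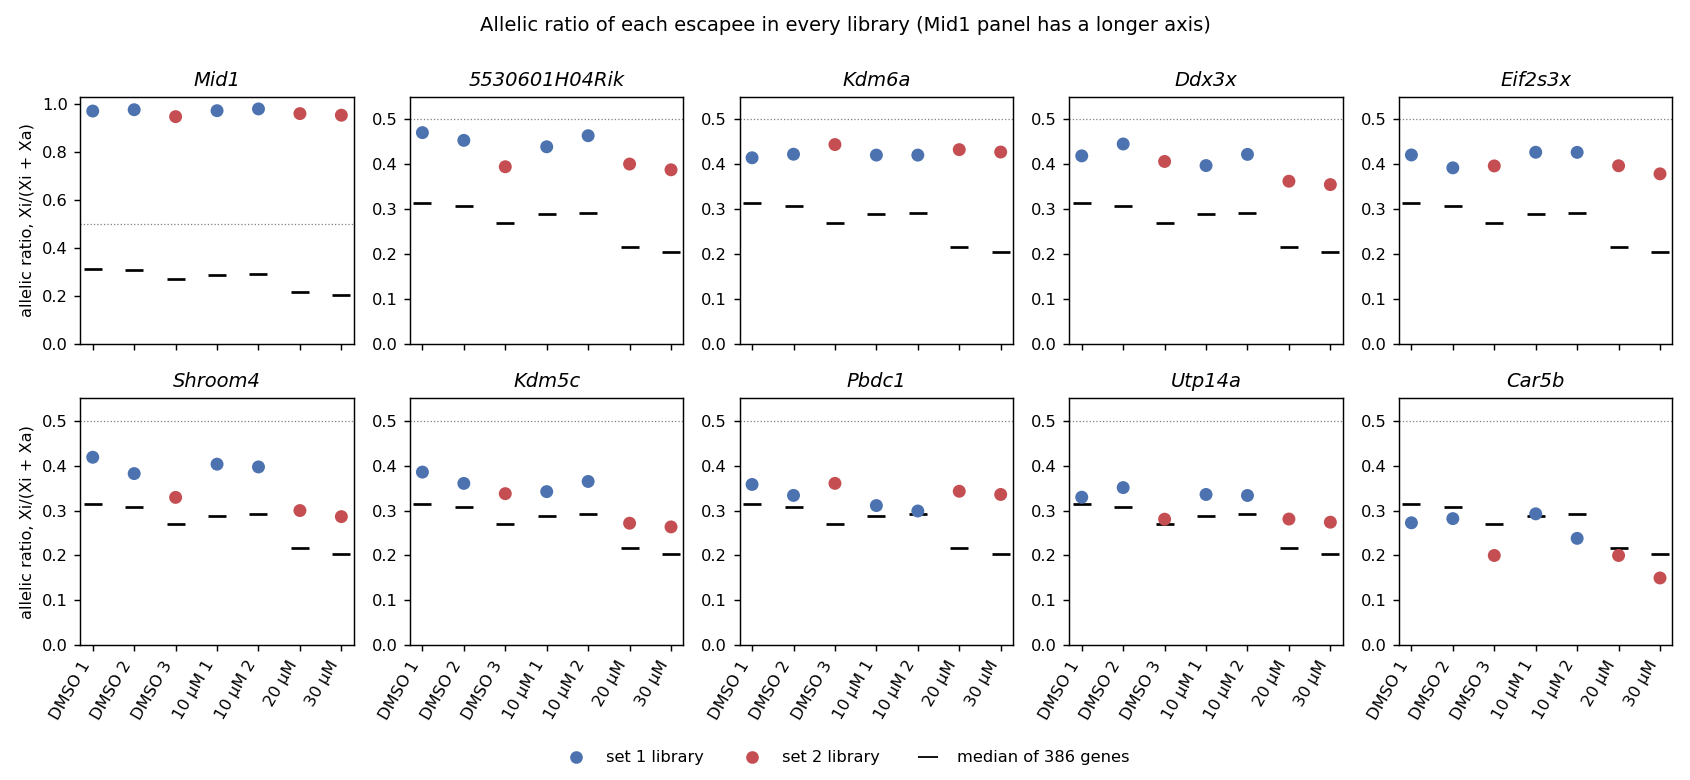
Allelic ratio Xi/(Xi + Xa) of the 10 escapees (1 panel each, points) in the 7 libraries, with the median of 386 X-linked genes in the same library as a dash and equal expression (0.5) as a dotted line. Blue points are libraries of set 1 and red points of set 2, and the Mid1 axis is longer. Mid1 lies at 0.947 to 0.979, Car5b is the only member below the dash in most libraries, and the dashes go down to 0.204 at 30 µM while Kdm6a points stay between 0.414 and 0.443.

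Among the chromatin regulators, Kdm6a and Kdm5c had different profiles. Kdm6a encodes a demethylase of histone H3 lysine 27 and occupies chrX:18162666-18279358 (mm10, plus strand, 29 exons in its longest transcript). Its ratio was 0.414, 0.422 and 0.443 in DMSO replicates 1, 2 and 3, a mean of 0.426 ± 0.0152 (SD, n = 3), 0.420 in both 10 µM libraries, 0.432 at 20 µM and 0.427 at 30 µM. The values at all doses overlapped those of DMSO. Among the 386 ratios Kdm6a stood at the 81.9th, 85.5th and 92.5th percentile in DMSO replicates 1, 2 and 3, at the 87.0th and 88.9th at 10 µM, and at the 92.0th and 95.3rd at 20 µM and 30 µM. The 3 highest percentiles were those of set 2, its DMSO library included, and the 20 µM library stood just below that control.

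Kdm5c encodes a demethylase of histone H3 lysine 4 and occupies chrX:152233226-152279099 (mm10, plus strand, 26 exons). Its ratio was 0.386, 0.360 and 0.338 in the DMSO libraries, a mean of 0.361 ± 0.0240 (SD, n = 3), 0.342 and 0.365 at 10 µM, and 0.272 and 0.264 at 20 µM and 30 µM. The 10 µM values lay within the DMSO range, and both higher doses lay below it. Kdm5c tracked the chromosome: its distance from the library's median was between 0.0534 and 0.0730 in all 7 libraries.

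In the genes of translation and ribosome assembly, the ratio at the higher doses differed little from that of DMSO replicate 3, the control of the same set, apart from Ddx3x. Eif2s3x encodes the gamma subunit of the initiation factor eIF2, which brings the initiator tRNA to the ribosome, and occupies chrX:94188708-94212651 (mm10, minus strand, 12 exons). Its ratio was 0.420, 0.392 and 0.396 in DMSO, 0.426 in both 10 µM libraries, 0.396 at 20 µM and 0.378 at 30 µM. The 30 µM value was the only one at the higher doses below all DMSO values.

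Ddx3x encodes a DEAD-box RNA helicase that acts in translation initiation and occupies chrX:13281021-13293983 (mm10, plus strand, 17 exons). Its ratio was 0.418, 0.445 and 0.406 in DMSO, 0.397 and 0.421 at 10 µM, and 0.362 and 0.354 at 20 µM and 30 µM. Both higher doses lay below every DMSO library, and 10 µM replicate 1 did so too. Ddx3x has closely related copies elsewhere in the genome, and since unique alignments alone were kept, reads shared with them would be missing from its values.

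Utp14a encodes a nucleolar protein needed to process 18S ribosomal RNA and occupies chrX:48256933-48282449 (mm10, plus strand, 15 exons). Its ratio was 0.330, 0.351 and 0.281 in DMSO, 0.336 and 0.334 at 10 µM, and 0.281 and 0.274 at 20 µM and 30 µM. All 3 libraries of set 2 were low, the DMSO one included. A noncoding gene, 9530027J09Rik, overlaps it on the opposite strand, and read pairs were counted by strand.

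Of the cytoskeletal members, Mid1 had the highest ratio of the group, while Shroom4 ran from 0.286 to 0.419. Mid1 encodes a microtubule-binding ubiquitin ligase, lies at the distal end of the chromosome and occupies chrX:169685198-169990797 (mm10, plus strand, 10 exons), overlapped by 5 genes on the opposite strand. Its ratio was 0.970, 0.975 and 0.947 in DMSO, 0.971 and 0.979 at 10 µM, and 0.959 and 0.953 at 20 µM and 30 µM, so that nearly all its allele-assigned reads were of the Cast chromosome in every library. It ranked 2nd of 386 in 6 libraries and 3rd at 20 µM. The genes with the highest median ratio in DMSO were Frmd7 (0.988), Mid1 (0.970), Xist itself (0.917), Slc25a5 (0.806) and Ap1s2 (0.743), and Mid1 was the only member among them.

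Shroom4 encodes an actin-binding regulator of cell shape and occupies chrX:6400144-6633717 (mm10, plus strand, 9 exons). Its ratio was 0.419, 0.382 and 0.329 in DMSO, 0.403 and 0.397 at 10 µM, and 0.300 and 0.286 at 20 µM and 30 µM. Both higher doses lay below all DMSO libraries, and the 3 libraries of set 2 were the 3 lowest.

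Car5b, which encodes a mitochondrial carbonic anhydrase, had the lowest ratio of the members. It occupies chrX:163976821-164028010 (mm10, minus strand, 8 exons). Its ratio was 0.273, 0.282 and 0.200 in DMSO, 0.293 and 0.238 at 10 µM, and 0.200 and 0.150 at 20 µM and 30 µM. It was also the most thinly covered member, with 30 to 121 read pairs per library in all, of which those that carry an allele are an unknown share, so that these values have the least precision. Every other member had at least 661.

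The last members are neighbours. 5530601H04Rik is a noncoding transcript (chrX:105040853-105070124, mm10, minus strand, 6 exons), and Pbdc1 encodes a protein with a polysaccharide biosynthesis domain (chrX:105079755-105117090, plus strand, 6 exons). In the GENCODE annotation they start 147 bases apart on opposite strands, at 105079609 and 105079756, and both starts lie inside the Pbdc1 window printed above, whereas the gene models of the deposited tables leave 9.63 kb between them. The ratio of 5530601H04Rik was 0.470, 0.453 and 0.394 in DMSO, 0.438 and 0.463 at 10 µM, and 0.400 and 0.387 at 20 µM and 30 µM. The ratio of Pbdc1 was 0.358, 0.334 and 0.360 in DMSO, 0.311 and 0.299 at 10 µM, and 0.343 and 0.336 at 20 µM and 30 µM. 5530601H04Rik was higher than Pbdc1 in 7 of 7 libraries. The 2 genes had different profiles: 5530601H04Rik was lowest in set 2, while the lowest Pbdc1 values were those at 10 µM, and its values in set 2 lay between 0.336 and 0.360. Pbdc1 stood at the 52.3rd to 62.7th percentile in set 1 and at the 78.0th to 84.2nd in set 2.

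The members were set against the nearest gene on either side in the ratio table. Eif2s3x was above Zfx, a zinc finger gene with a Y homologue, and above Klhl15 in 7 of 7 libraries. The ratio of Klhl15 was 0.161 at 30 µM, where that of Eif2s3x was 0.378. Utp14a was above Zdhhc9 and Bcorl1 in 7 of 7. At the other end of the contrast, 5530601H04Rik was above Zdhhc15, which had a ratio of 0.0278 to 0.0985, in 7 of 7. Kdm5c was above Iqsec2 in 7 of 7 libraries and above 2900056M20Rik in 4. Kdm6a was above Fundc1 in 7 and above Chst7 in 5, and Ddx3x was above Usp9x in 7 and above Cask in 2. Mid1 was above Hccs in 7, Shroom4 above Dgkk in 6 and Pbdc1 above Atrx in 4. Car5b was below both its neighbours, Zrsr2 and Siah1b, in 7 of 7 libraries, and Zrsr2 had a ratio of 0.313 at 30 µM. High ratios were not particular to the members: the 5 other genes whose ratios lay closest to the members' median over the 7 libraries were Chm, Brcc3, Eda2r, Vma21 and Rps6ka3, at Euclidean distances of 0.0293 to 0.0681.

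The first comparison asked whether the ratio moved with the dose of the inhibitor. Slopes were negative for 368 of 386 genes and for 9 of the 10 escapees, and no escapee passed the test. They were fitted over the 7 libraries on log2 of ratio/(1 - ratio), per 10 µM, with limma. In this fit 15 of 386 genes (3.89%) fell and none rose at an adjusted p under 0.05, and 0 of the 10 members were called. At an unadjusted p under 0.05 there were 186 genes, among them Kdm5c, Ddx3x, Shroom4 and Car5b. The median slope was -0.24 over all genes and -0.13 over the members, and 9 of the 10 members had a slope above the chromosome's median.

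The steepest members were Car5b, with a slope of -0.28 ± 0.117 (SE, limma adjusted p = 0.0986), and Kdm5c, with -0.24 ± 0.0661 (SE, limma adjusted p = 0.0596). Shroom4 had -0.21 ± 0.0882 (limma adjusted p = 0.102) and Ddx3x -0.15 ± 0.0495 (limma adjusted p = 0.0621). At the other end, Kdm6a had a slope of 0.0048 with a 95% interval of -0.093 to 0.103. The slopes of Pbdc1 (-0.030) and Eif2s3x (-0.042) were the next closest to 0, with limma adjusted p of 0.718 and 0.533. The lower limits of the unadjusted 95% intervals of Kdm6a, Pbdc1 and Eif2s3x were -0.093, -0.18 and -0.16. The difference from the chromosome's slope was fitted separately below, and no member was called there. Utp14a had -0.11, 5530601H04Rik -0.11 and Mid1 -0.16, and the Mid1 interval was wide, from -0.56 to 0.25. The direction of the Mid1 slope was not stable: it was 0.092 with library set as a term and 0.012 with ratios limited to 0.05 and 0.95, and within set 2 its ratio exceeded the control by 0.0127 at 20 µM and 0.00593 at 30 µM. The count of 9 negative slopes thus includes that of Mid1, whose sign turns. It also includes that of Eif2s3x, which ran from -0.062 to 0.013 with a library left out.

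These calls depend on which libraries and genes enter. DMSO replicate 3 is the only control of set 2, so that without it the 20 µM and 30 µM libraries are the whole of that set, and higher dose and library set cannot be told apart. In that fit 178 genes (46.1%) were called, and 5 members were called with slopes of -0.16 to -0.37: Kdm5c, Ddx3x, Shroom4, Car5b and 5530601H04Rik. Against DMSO replicate 3 itself, 5530601H04Rik differed by 0.00601 and -0.00681 at 20 µM and 30 µM, and Car5b by 0 and -0.0500. Leaving out any other library gave 0 to 8 genes and no member. Among the 193 genes at or above the median RPM, 104 (53.9%) were called, and the members called, both lower, were Kdm5c (limma adjusted p = 0.0244) and Ddx3x (limma adjusted p = 0.0319). The shares of members called, 5 of 10 and 2 of 9, stand beside those backgrounds. With library set as a term no gene of the 386 was called by limma with the eBayes trend, and 25 were called when the trend was left out too, none of them a member.

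As a count over libraries, both the 20 µM and the 30 µM ratio lay below all 3 DMSO ratios for 235 of 386 genes (60.9%) and for 3 of the 10 members, Kdm5c, Ddx3x and Shroom4. Both lay above all DMSO ratios for 1 gene of 386 and for no member. Since DMSO replicate 3 is the control of their set, the same ratios were compared within sets. At 30 µM the ratio was lower than in DMSO replicate 3 for 348 genes (90.2%), with a median difference of -0.0558 over all genes and -0.0212 over the members, of which 9 were lower and Mid1 was higher. At 20 µM it was lower for 298 genes (77.2%) with a median difference of -0.0478, and for 5 members, with 4 higher and Car5b equal, and a median of -0.00566. In set 1, 10 µM replicate 1 was lower than DMSO replicate 1 for 276 genes (71.5%) and 5 members, and 10 µM replicate 2 was lower than DMSO replicate 2 for 267 genes (69.2%) and 5 members.

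**Figure D2:**
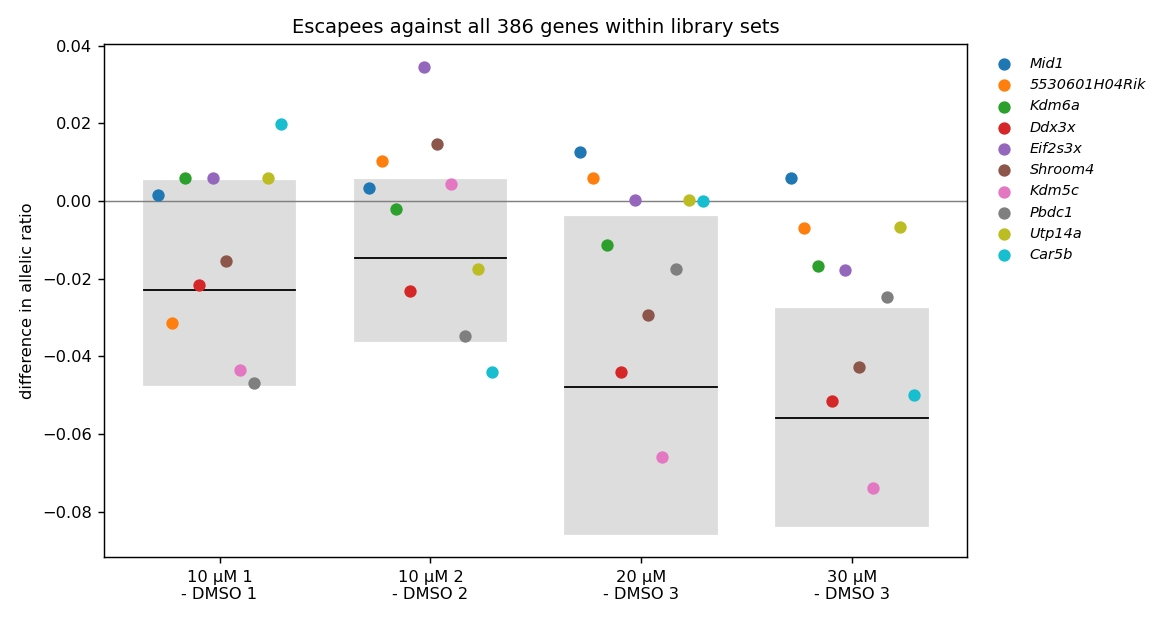
Difference in allelic ratio between each inhibitor library and a DMSO library of the same set (x axis) for the 10 escapees (coloured points). Grey boxes span the 25th to 75th percentile of all 386 genes and black lines are their medians, -0.0228, -0.0146, -0.0478 and -0.0558. Kdm5c lies below the median line and Mid1 above 0 in both set 2 comparisons.

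The members differed in their within-set values. Kdm5c differed by -0.0658 at 20 µM and by -0.0740 at 30 µM, both past the chromosome's median. Ddx3x differed by -0.0440 and -0.0515, close to that median. Utp14a differed by 0.000338 and -0.00670, Eif2s3x by 0.000359 and -0.0176 and 5530601H04Rik by 0.00601 and -0.00681. These 3 genes were nearer to their control than the median gene at both higher doses, and so was every other member but Kdm5c. At 10 µM the replicates went opposite ways for 6 of the members, Kdm5c among them, with differences of -0.0435 and 0.00433. Pbdc1 was lower in both, with differences of -0.0469 and -0.0347. Ddx3x was lower in both too, and Eif2s3x and Mid1 were higher in both.

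At 10 µM, the only replicated dose, the ratio was also tested against DMSO with limma over 386 genes. No gene was called (0%) and 12 had an unadjusted p under 0.05, none of them a member. The median difference on the log2 scale of ratio/(1 - ratio) was -0.049 over all genes and 0.084 over the members. Pbdc1 had the smallest p of the members, with -0.30 and a 95% interval of -0.65 to 0.047 (limma adjusted p = 0.985), and the interval of Eif2s3x ran from -0.15 to 0.43.

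The second comparison asked whether the escapees' slopes differed from that of the chromosome as a whole, after each library's median was subtracted. In this fit 3 of 386 genes (0.777%) were called, all lower, and 0 members, and without any one library other than the 20 µM one no gene was called by limma. Relative slopes were below 0 for 1 of the 10 members and for 182 of 386 genes, with a median of 0.12 over the members and 0.013 over all. Kdm6a had the highest, 0.26 per 10 µM (95% interval 0.083 to 0.435, limma adjusted p = 0.237). Pbdc1 followed with 0.22 (-0.0072 to 0.455, limma adjusted p = 0.312) and Eif2s3x with 0.21 (0.096 to 0.329, limma adjusted p = 0.165). The intervals of 5530601H04Rik (0.15) and Utp14a (0.14) were also above 0 and both had a limma adjusted p of 0.237. Ddx3x had 0.10, Mid1 0.097, Shroom4 0.046, Kdm5c 0.015 and Car5b -0.026, all with intervals across 0. A total of 62 genes had an unadjusted p under 0.05, and Kdm6a, Eif2s3x, Utp14a and 5530601H04Rik were among them.

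**Figure D3:**
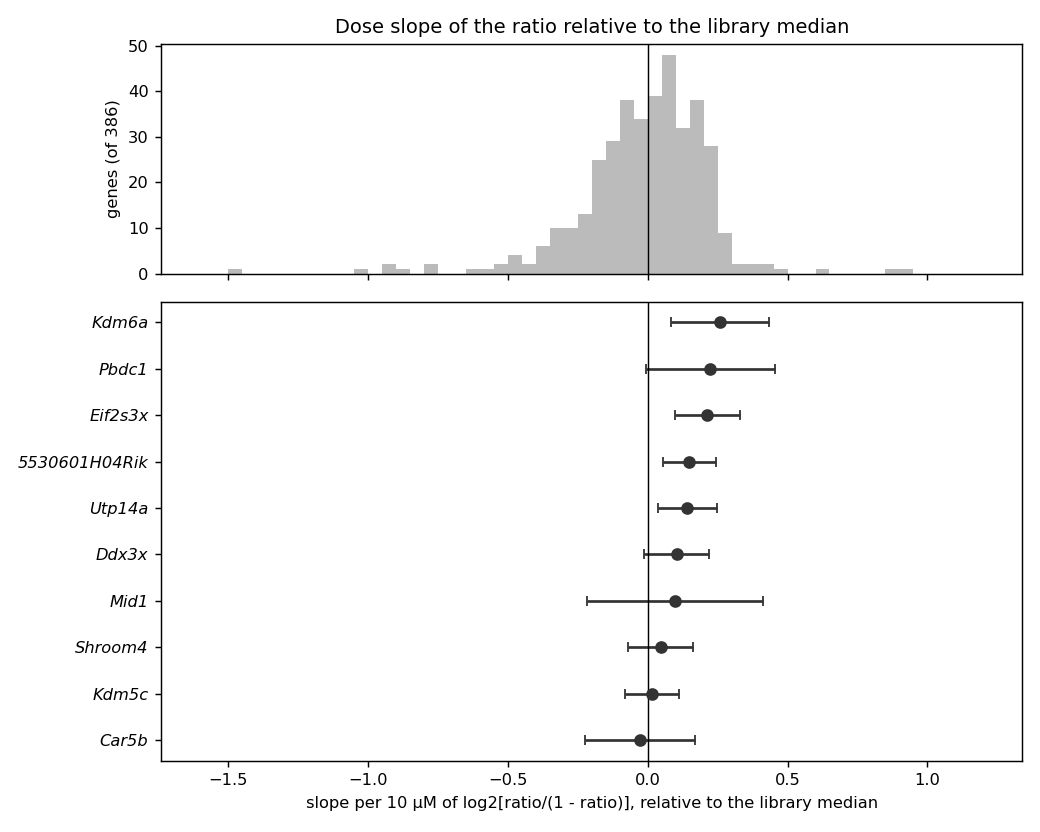
Slope per 10 µM of log2[ratio/(1 - ratio)] after the library median is subtracted. The upper panel is a histogram of 386 genes, and the lower panel gives each escapee as a point with its 95% interval from limma. Of the members, 9 lie above 0, from Kdm5c at 0.015 to Kdm6a at 0.26, and Car5b lies at -0.026.

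A ratio can change through either chromosome, so the level of each member was split into an Xi level (RPM times the ratio) and an Xa level (RPM times 1 minus the ratio). The ratio comes from reads over SNPs alone, and these levels assume that it holds for the whole gene. In the dose trend of the Xi level 7 of 386 genes (1.81%) were called, all lower, and 0 members. Without DMSO replicate 1 or 2, 10 µM replicate 1 or the 30 µM library no gene was called for the Xi level by limma, and without the 20 µM library 4 were. In the trend of the Xa level 0 genes (0%) were called by limma, with 39 at an unadjusted p under 0.05.

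Kdm5c had a lower Xi level at the higher doses beside a steady Xa level. Its Xi level was 75.0, 70.3 and 63.2 RPM in DMSO, 57.7 and 68.3 RPM at 10 µM, 42.6 RPM at 20 µM and 44.0 RPM at 30 µM, and its Xa level stayed between 110.9 and 125 RPM in all libraries. Both higher doses lay below all DMSO Xi levels, and the share of all genes of which this holds was not counted. Slopes on the log2 scale were -0.25 ± 0.0671 for the Xi (SE, limma adjusted p = 0.0872) and -0.012 ± 0.0526 for the Xa (SE, limma adjusted p = 0.905). Shroom4 and Ddx3x also had ratios below all DMSO libraries at both higher doses, but not such Xi levels. The Xi level of Shroom4 was 77.6, 58.8 and 77.2 RPM in DMSO, 75.1 RPM at 20 µM and 79.5 RPM at 30 µM. Its Xa level was then 175 and 198 RPM, above the 157 RPM of DMSO replicate 3, the highest control. The Xi level of Ddx3x was 143 to 163 RPM in DMSO, 182 RPM at 20 µM and 121 RPM at 30 µM. Its Xa level was 179 to 239 RPM in DMSO and 322 and 221 RPM at the higher doses.

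Mid1 and Pbdc1 had higher levels from both chromosomes at the higher doses. The Xi level of Mid1 was 316, 399 and 543 RPM in DMSO, 388 and 477 RPM at 10 µM, 726 RPM at 20 µM and 791 RPM at 30 µM. The Xa level of Mid1 was 9.82, 10.0 and 30.6 RPM in DMSO, 11.4 and 10.3 RPM at 10 µM, 30.8 RPM at 20 µM and 39.4 RPM at 30 µM. The higher doses thus exceeded every DMSO library on both chromosomes, though for the Xa the 20 µM library stood at 1.00-fold DMSO replicate 3.

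The Xi level of Pbdc1 was 36.9, 44.2 and 68.5 RPM in DMSO, 34.9 and 42.4 RPM at 10 µM, 98.1 RPM at 20 µM and 85.3 RPM at 30 µM. Its Xa level was 66.1, 88.2 and 122 RPM in DMSO, 77.3 and 99.4 RPM at 10 µM, 188 RPM at 20 µM and 169 RPM at 30 µM. Both levels were highest at 20 µM and 30 µM, and here too the share of all genes was not counted. Xi slopes per 10 µM were 0.34 for Mid1 (limma adjusted p = 0.0872) and 0.33 for Pbdc1 (limma adjusted p = 0.173). Without DMSO replicate 3, 145 genes (37.6%) were called for the Xi level, and of the members Kdm5c had a negative slope and Mid1 and Pbdc1 positive ones. For the Xa level 74 genes (19.2%) were then called, with Mid1, Shroom4 and Pbdc1 at positive slopes, and here too dose and set cannot be told apart.

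**Figure D4:**
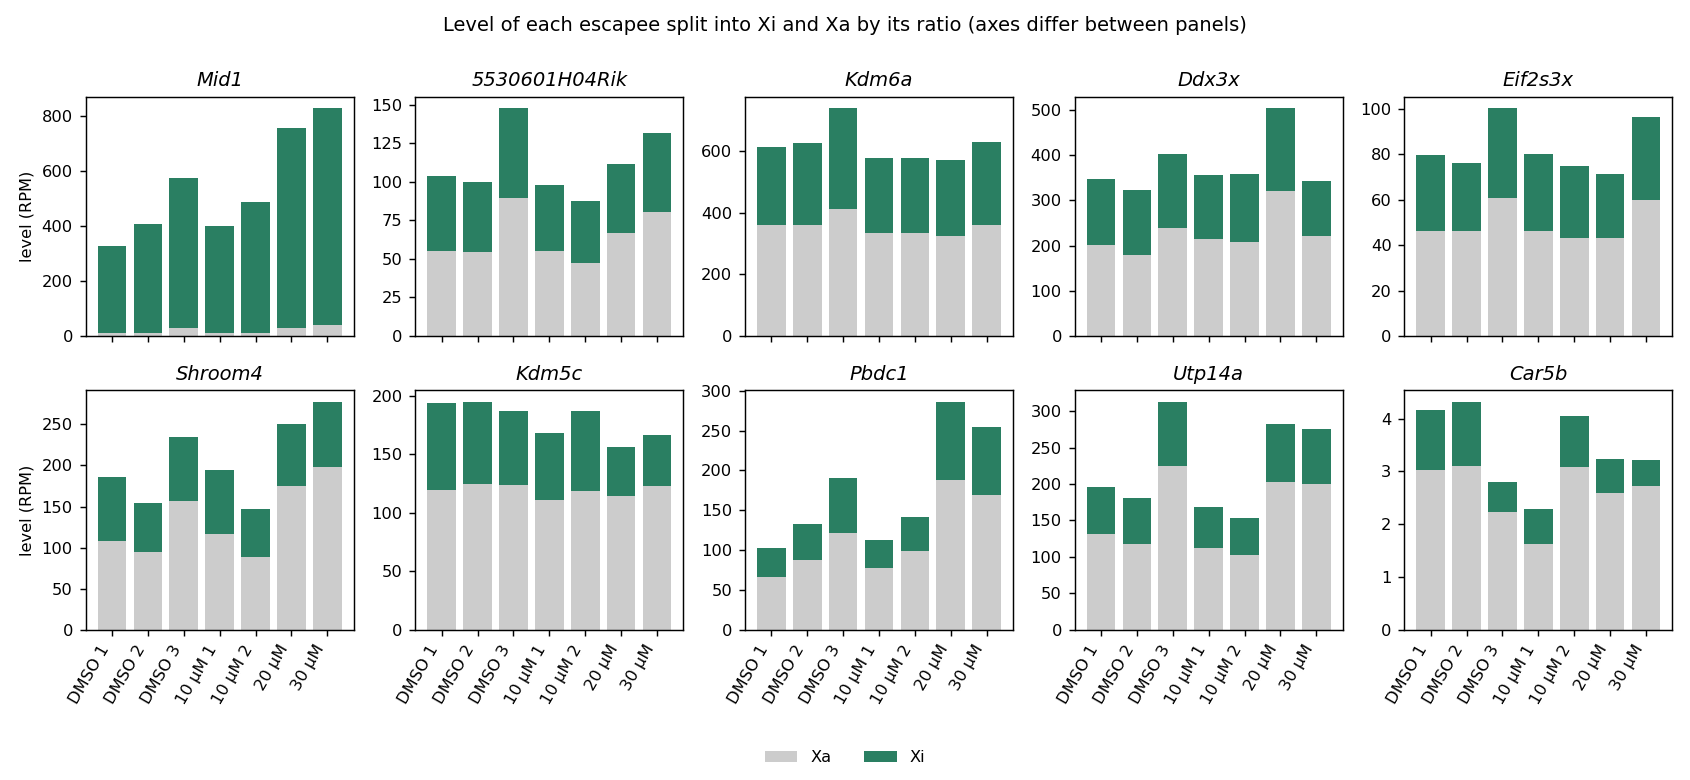
Level of each escapee in RPM in the 7 libraries, with the Xa level in grey and the Xi level in green stacked above it, so that the bar's height is the whole level. Axes start at 0 and differ between panels. Mid1 bars are almost wholly green and reach 830 RPM at 30 µM, and the grey part of the Kdm5c bars stays between 110.9 and 125 RPM.

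The whole level, irrespective of allele, was then tested, and no escapee was called over all libraries. Among 13599 genes averaging 1 RPM or more, limma on log2(RPM + 1) called 0 (0%) for the dose trend, with 1174 at an unadjusted p under 0.05, while edgeR on recovered read pairs called 0 and DESeq2 129. For 10 µM against DMSO limma called 0 (0%), with 212 at an unadjusted p under 0.05, edgeR 0 and DESeq2 1. This held for the members with limma, edgeR and DESeq2. The highest slopes of the members were those of Pbdc1 and Mid1, both 0.35 per 10 µM, with standard errors of 0.128 and 0.0990 and the same limma adjusted p of 0.508.

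Mid1 had 326, 409 and 574 RPM in DMSO, 399 and 487 RPM at 10 µM, 756 RPM at 20 µM and 830 RPM at 30 µM. Pbdc1 had 103, 132 and 190 RPM in DMSO, 112 and 142 RPM at 10 µM, 286 RPM at 20 µM and 254 RPM at 30 µM. For both genes DMSO replicate 3 was the highest control. Within set 2 Mid1 was 1.32-fold and 1.45-fold the control at 20 µM and 30 µM, and Pbdc1 1.51-fold and 1.34-fold. Without DMSO replicate 3, 2485 genes (18.3%) were called, with Mid1, Shroom4 and Pbdc1 at positive slopes, in a fit that cannot tell dose from set.

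DMSO and 10 µM libraries of the same number shared deviations, and with the replicate number as a block 1020 of 13599 genes (7.5%) were called at 10 µM, 459 of them lower. Of the members, Mid1 rose by 0.27 on the log2 scale (limma adjusted p = 0.000953) and Utp14a fell by 0.23 (limma adjusted p = 0.0189). Mid1 was 1.22-fold and 1.19-fold its paired control in replicates 1 and 2, and Utp14a 0.862-fold and 0.846-fold. This fit leaves out DMSO replicate 3, which has no 10 µM partner, and the other 8 members were not called in it. With so few libraries, each gene's spread rests largely on the spread shared over genes. With DMSO replicate 3 and without the block, Mid1 had 0.054 (limma adjusted p = 0.945) and Utp14a -0.47 (limma adjusted p = 0.811).

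Of the other members, Shroom4 lay above and Kdm5c below all DMSO libraries at both higher doses, and none of the rest lay on one side at both. The share of all genes whose level did so was not counted, so this is not given as a trait of the members. Kdm6a had 614, 626 and 741 RPM in DMSO, 579 RPM in both 10 µM libraries, 573 RPM at 20 µM and 631 RPM at 30 µM. Utp14a had 196, 181 and 313 RPM in DMSO, 169 and 153 RPM at 10 µM, 283 RPM at 20 µM and 275 RPM at 30 µM, so that the 3 set 2 libraries were the highest. Kdm5c ranged from 157 to 195 RPM, Eif2s3x from 71.1 to 100.2 RPM, and Ddx3x from 322 to 504 RPM with the highest at 20 µM. Shroom4 ranged from 148 to 277 RPM, 5530601H04Rik from 87.7 to 148 RPM and Car5b from 2.29 to 4.32 RPM.

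Per kb of gene, the DMSO level ran from 27.5 ± 3.19 RPM per kb for Ddx3x (SD, n = 3) through 9.01 ± 2.83 for Utp14a and 5.66 ± 0.601 for Kdm6a to 1.43 ± 0.412 for Mid1, 0.819 ± 0.174 for Shroom4 and 0.0734 ± 0.0164 for Car5b. Kdm5c (4.19 ± 0.0952), 5530601H04Rik (3.42 to 5.05 over the DMSO libraries), Pbdc1 (3.80 ± 1.19) and Eif2s3x (3.56 ± 0.543) came between Kdm6a and Mid1, and their DMSO values overlapped. The order of level is not the order of ratio: Ddx3x had the highest level per kb and Mid1, the gene with the highest ratio, one of the lowest.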

How the data were processed

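The 7 ChrRNA-seq libraries, 3 of DMSO and 4 of STM2457, were used. The authors discarded reads matching rRNA (Bowtie2), mapped what was left with STAR to mm10 with SNP positions masked, counted uniquely mapped read pairs over transcripts by strand with featureCounts, and deposited RPM scaled with edgeR to the total on genes. The authors sorted alignments into Cast and 129S with SNPsplit and deposited, as a fraction, the Xi share of allele-assigned reads, Xi/(Xi + Xa), of X-linked genes that had 10 or more reads over SNPs. Allele read numbers are unknown, so ratios carry no counting interval, and those of thinly covered genes are the least precise.

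RPM values were whole multiples of 1 step per library for 100% of values, which gave back read pairs, 9300549 to 28030180 per library. Ratios, limited to 0.01 and 0.99, were tested as log2 of ratio/(1 - ratio), with or without the library median subtracted. Xi and Xa levels were tested as log2(level + 0.1 RPM), and expression as log2(RPM + 1) for 13599 genes averaging 1 RPM or more, and these scales shrink the fold changes of low genes. All used limma 3.58.1 (lmFit, eBayes with trend) with Benjamini-Hochberg adjustment over all genes of the table and a threshold of 0.05. Alternatives were edgeR 4.0.16 and DESeq2 1.42.0 on the recovered read pairs, other pseudocounts, filters, limits and scalings, library set as a term, and each library left out. R 4.3.3, Python 3.11.15, numpy 2.4.6, pandas 2.3.3 and matplotlib 3.10.9 were used.

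DMSO and 10 µM replicates 1 and 2 were paired by number, since by the paper's methods the conditions of a replicate came from 1 pool of cells. Deviations of same-numbered libraries correlated with 0.621 across 13599 genes for expression and 0.138 across 386 genes for the ratio.

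Named genes were the 10 members, their nearest genes in the ratio table, the 5 other genes with ratios closest to the members' median, the 5 highest in DMSO, Xist, and from each other list (X genes with a Y homologue, variable escapees, genes subject to silencing, the X inactivation centre) those called and the lowest and highest. Members and lists were taken by gene name, with earlier results of these data known.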

Additional observations from a re-analysis of the deposited data

How the results depend on the processing

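No member was called in any of the 7 tests, whether over all libraries or of 10 µM against DMSO. This held under every alternative run except those given here. The eBayes fits without trend, alone or with library set, were added after seeing the data. Of 386 genes, the dose trend of the ratio called 42 with limits of 0.05 and 0.95, 6 on the untransformed ratio, 104 (2 members) of the 193 genes at or above the median RPM, 55 without the eBayes trend, 0 with library set as a term and 25 with both changes, against 15. The relative ratio called 0 with the other limits, untransformed, or with library set with or without the trend, against 3. The Xi level called 11 with TMM factors and 18 with library set, against 7, and the Xa level 1 with library set, against 0. Expression called 129 for the dose trend with DESeq2 and 27 with library set, and 1 at 10 µM with DESeq2. With the replicate block, expression at 10 µM called 1020 genes and 2 members, while the ratio called 0 of 386 and 0 members. Among the genes at or above the median RPM the median ratio was 0.334 in DMSO replicate 2, 0.323 in 10 µM replicate 1 and 0.244 at 20 µM.

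Leaving out each library in turn gave 0 to 178 genes for the ratio, 0 to 3 for the relative ratio, 0 to 145 for the Xi level, 0 to 74 for the Xa level and 0 to 2485 for expression by dose, and 0 to 1 for expression at 10 µM. Members called ran from 0 to 5 for the ratio and from 0 to 3 for each level. The highest counts but that of the relative ratio came without DMSO replicate 3, which leaves dose and library set impossible to tell apart, and a lone library of a group is then assumed to vary like the others.

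Some slopes changed sign, most of them near 0, while that of Mid1 was -0.16 over all libraries. The ratio slope of Kdm6a was -0.025 with library set (with or without the trend) and -0.0060 to 0.024 with a library left out, with -0.0011 without the 20 µM library. That of Eif2s3x ran from -0.062 to 0.013, and that of Mid1 was 0.012 with limits of 0.05 and 0.95 and 0.092 with library set (with or without the trend). The relative slope of Kdm5c was -0.0025 and that of Car5b 0.0012 on the untransformed ratio. That of Car5b was 0.036 with library set (with or without the trend) and -0.076 to 0.11 with a library left out, and that of Mid1 -0.0085 to 0.24. The Xi slope of Kdm6a was 0.00080 with TMM factors and -0.11 to 0.012 with a library left out, its expression slope was 0.0040 with edgeR, and the Xa slope of Kdm5c was 0.025 with TMM factors. Of 394 slopes of members under an alternative, 18 changed sign, 14 became significant and 362 did neither. Ratios of thinly covered genes, Car5b among the members, are limited most by depth, and 1 library each at 20 µM and 30 µM leaves those doses without a spread of their own.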

Other observations

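Other X-linked groups gave the following values beside the 10 escapees, whose ratio slopes had a median of -0.13 per 10 µM with 0 of 10 called by limma. Of 8 X genes with a Y homologue in the ratio table, 4 of them escapees, 0 were called and the median slope was -0.15. Their ratios ran from 0.0841 for Rbmx to 0.443 for Kdm6a, so a Y homologue did not go with a high ratio in every case. Of 9 variable escapees 0 were called, with a median of -0.14, and they ran from 0.0656 for Firre, a noncoding RNA gene, to 0.444 for Gpm6b. Of 19 genes subject to silencing 1 fell, Hsd17b10, a mitochondrial dehydrogenase gene with a ratio of 0.0312 to 0.400 and a level of 3.07 to 6.50 RPM, and the median was -0.19. Of 7 genes of the X inactivation centre 0 were called, with a median of -0.14, and they ran from 0 for Tsx to 0.929 for Xist. In the Xi level Huwe1 was the 1 gene called among those subject to silencing, and it fell.

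Slc25a5, an adenine nucleotide carrier gene with the fourth highest DMSO median ratio, split by library set: its ratio was 0.806, 0.798, 0.842 and 0.764 in set 1 and 0.945, 0.961 and 0.952 in set 2. Mid1 did not show this split upward, with 0.970 to 0.979 in set 1 and 0.947 to 0.959 in set 2. The cause was not tested.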
